A study of Mus musculus with 96 samples.

Results

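RNA-rich and RNA-poor hematopoietic stem cells were compared by the share of their sequencing counts that fell on spike-in RNA. The 96 libraries of the series were single cells of mouse bone marrow, each sorted into a well of a 96-well plate with lysis buffer. They came from the femurs and tibiae of C57BL/6 mice aged 9 to 12 weeks, with no genetic change or treatment named, through the gate that the study calls HSC1, which takes lineage-negative cells that carry c-Kit, Sca-1 and CD150 on the surface and lack CD34, CD48 and Flt3. Cells 1, 2, 6 and 36 were left out, and the groups were chosen by the share of ERCC counts, meaning spike-in counts over all counts of the cell, in the other 92. The 23 cells with the lowest share are called RNA-rich, the 23 with the highest share RNA-poor, and the 46 in between middle cells. Both groups therefore held cells of the same sorted population. No source names the animal behind a cell, so each group is a selection from 1 sample, and the differences below carry no test, p-value or standard error. Means are given with the SD over cells.

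ERCC spike-ins are synthetic RNAs of known sequence that are added in equal amount to each well. A library with few spike-in counts for its gene counts thus had more cellular RNA copied for each spike-in molecule. Cells that leave quiescence are known to enlarge and to make more ribosomes, and most long-term stem cells rest in a small, quiescent state. The spike-in ratio is not a direct count of RNA, however. RNA content, lysis and capture of the cell's RNA, and the volume of spike-in that reached the well change it in the same way and cannot be told apart here.

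The share itself chose the groups and is given as a description. It ran between 0.377% and 0.811% (median 0.663%) in RNA-rich cells and between 1.54% and 2.64% (median 1.83%) in RNA-poor cells. Pooled over cells it was 0.636% in RNA-rich cells (95% exact binomial interval 0.633 to 0.638%) and 1.90% in RNA-poor cells (1.89 to 1.90%). These intervals cover counting error only, since reads copied by PCR without molecular identifiers are not independent molecules. The edges of the groups fell in a continuous range. The last RNA-rich cell had a share of 0.811% and the next cell 0.814%, and the first RNA-poor cell had 1.54% beside 1.52% in the cell before it. The difference lay in the spike-ins, since ERCC counts had a median of 12236 in RNA-rich cells and 33748 in RNA-poor cells, whereas gene counts had medians of 1885777 and 1747691. Gene counts ran between 1175142 and 3242057 in RNA-rich cells and between 1092884 and 3473151 in RNA-poor cells, so the depth of the groups overlapped almost fully. For each ERCC count, RNA-rich cells had a median of 149.9 gene counts and RNA-poor cells 53.6, a 2.8-fold difference.

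RNA-rich cells also yielded more genes. With a gene detected at 1 count or more, the number ran between 5880 and 8727 (median 7250) in RNA-rich cells and between 4945 and 7487 (median 6402) in RNA-poor cells. After every cell was thinned at random to 700000 gene counts, the medians were 6858 and 5829 genes. The 3 cells with the lowest shares, cells 74, 53 and 66, held the most genes of the 92 after thinning, with 8051, 8084 and 8225, and the groups still overlapped.

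**Figure D1:**
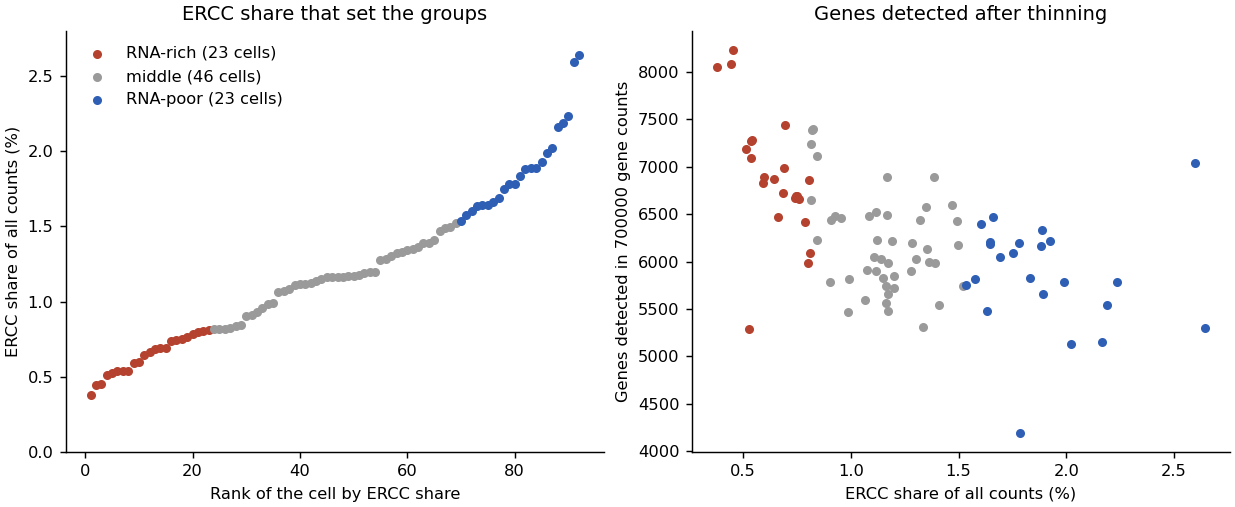
Left, ERCC share of all counts (%) of each of the 92 cells in order of rank, with RNA-rich, middle and RNA-poor cells in red, grey and blue. Right, genes detected in 700000 gene counts against the same share; RNA-rich cells had a median of 6858 genes and RNA-poor cells 5829, and 1 RNA-poor cell, cell 18, was lowest with 4198.

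The spike-ins did not all tell the same story. Their make-up also differed between the groups. It is not independent of the rule, since ERCC-00074 alone held 30.9% of the ERCC counts of the 92 cells and thus weighed on the total share. ERCC-00074, the most abundant spike-in, took 12.4 to 37.7% (median 19.4%) of the ERCC counts of an RNA-rich cell and 15.02 to 60.9% (median 40.6%) of those of an RNA-poor cell. ERCC-00046 had medians of 2.17% in RNA-rich cells and 6.88% in RNA-poor cells. ERCC-00096 went the other way, with 18.5% in RNA-rich cells and 11.2% in RNA-poor cells, as did ERCC-00130 with 18.5% and 11.1% and ERCC-00002 with 16.9% and 9.81%. The 2.8-fold difference in gene counts per spike-in count was accordingly 7.95-fold when read from ERCC-00046 alone and 5.73-fold from ERCC-00074. It was 1.94-fold from ERCC-00096, 1.56-fold from ERCC-00130 and 1.48-fold from ERCC-00002. The direction was the same for all 8 of the most abundant spike-ins, but its size was not. These spike-ins hold 89.6% of the ERCC counts that chose the groups, so a common direction is largely set by the rule.

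**Figure D2:**
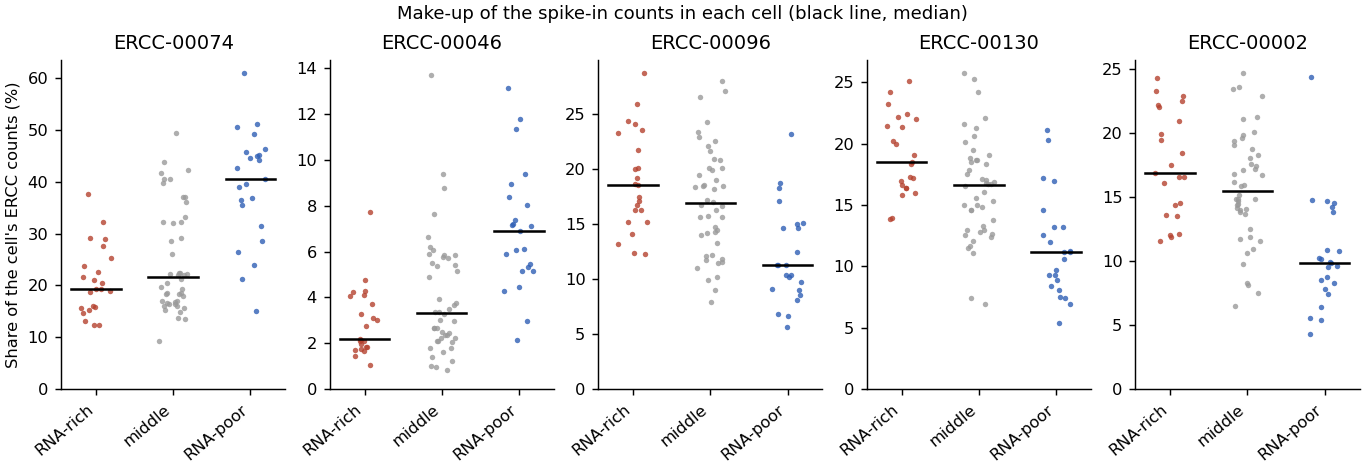
Share (%) of each cell's ERCC counts taken by 5 abundant spike-ins, with 1 point per cell and a black line at the median of the RNA-rich, middle and RNA-poor cells. ERCC-00074 and ERCC-00046 take larger shares in RNA-poor cells, with medians of 40.6% and 6.88%, and the other 3 take smaller ones.

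The groups were also unevenly spread over the cell numbers of the labels. Cells 73 to 96 held 11 RNA-rich and 1 RNA-poor cell, and cells 25 to 48 held 0 RNA-rich and 10 RNA-poor cells. Cells 1 to 24 held 7 and 3, and cells 49 to 72 held 5 and 9. The labels do not tie a number to a well. ERCC-00074 followed the same blocks, with median shares of 19.7% in cells 1 to 24, 32.2% in cells 25 to 48, 36.6% in cells 49 to 72 and 18.7% in cells 73 to 96. The part of cell number and of spike-in make-up in the results below was not tested, and values for groups balanced over the blocks, or ordered by other spike-ins, are given for the main lists and genes.

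Genes were compared on normalized counts, that is, counts divided by a size factor of the cell taken from the 602 genes counted in all 92 cells. This scale removes the overall difference in RNA and asks which genes took a larger or smaller part of the transcriptome. A gene entered when its mean was at least 50 over the middle cells and at least 10 of those cells had a count, which 5797 genes met. At least 2-fold higher means in RNA-rich cells were found for 227 genes (3.92%), and at least 2-fold lower means for 667 genes (11.5%). The median log2 ratio over all 5797 genes was -0.15. As a measure of how far the cells themselves separated, the percentage of pairs made of an RNA-rich and an RNA-poor cell in which the RNA-rich cell was higher is given beside the ratios. Its median over all genes was 51.99%.

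The balance between the directions rested on how the cells were averaged. With means of log2(normalized count + 1), which give less weight to single cells with very high counts, 1680 genes were at least 2-fold higher and 423 lower, so higher genes made up 79.9% of those past the fold in place of 25.4%. The median of all genes then moved by 0.57 to 0.41, and relative to it 1055 genes were higher and 813 lower. The number of higher genes was no larger than in cells that the groups left out. The middle cells ranked 24 to 46 set against those ranked 47 to 69, with median shares of 0.992% and 1.32%, gave 229 genes at least 2-fold higher and 254 lower. Only the number of lower genes exceeded that comparison, which was made in as many cells. The gene filter was set in those same middle cells and not in the groups, so the counts are not fully alike.

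On the higher side, the genes that set the groups most apart had varied roles. The 15 genes past the fold with the highest percentage of pairs (78.8 to 84.5%) had ratios of 2.01 to 4.18. Bzw2, a regulator of translation initiation on the minus strand of chromosome 12 (chr12:36091835-36158080, GRCm38), led them. Its normalized count ran between 1.90 and 725 (median 292) in RNA-rich cells and between 0 and 436 (median 0.998) in RNA-poor cells, a ratio of means of 3.33. It was counted in all 23 RNA-rich cells and in 14 of the 23 RNA-poor cells (95% exact binomial interval 38.5 to 80.3%). That interval treats the cells as independent draws, although they were chosen by rank from 1 sample. The RNA-poor cells with counts overlapped the RNA-rich ones, and the other 9 had none. Srm, the spermidine synthase of polyamine metabolism, had 0 to 1239 (median 465) in RNA-rich cells and 0 to 1066 (median 101.5) in RNA-poor cells. Nme1, a nucleoside diphosphate kinase, had 7.85 to 337 (median 120) in RNA-rich cells and 0 to 199 (median 37.7) in RNA-poor cells. Both were thus present in nearly all RNA-rich cells, at levels that many RNA-poor cells also reached. Dctpp1, which clears modified deoxycytidine triphosphate, was counted in 23 RNA-rich and 12 RNA-poor cells, with a ratio of 2.69. Fabp5, a carrier of fatty acids, was counted in 20 RNA-rich and 7 RNA-poor cells (ratio 4.18), and Rdh11, a retinol dehydrogenase, in 20 and 7 (ratio 3.98). Larp4, an RNA-binding protein that guards poly(A) tails, was counted in 17 and 3 cells. Tufm, the mitochondrial translation elongation factor, had medians of 198 in RNA-rich cells and 79.2 in RNA-poor cells. The other 7 genes were Polr2l, Kat2a, Rqcd1, Erh, Mki67ip, Dph3 and Tmem147, with ratios of 2.01 to 3.19. Of the 15, 11 had a ratio above 1 among the middle cells and 4, Bzw2, Fabp5, Rqcd1 and Tmem147, did not.

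The motif CACGTG, the canonical E-box bound by Myc and related factors, lies within 250 bases before a RefSeq start of 4 of these genes. These RefSeq starts lie inside the extents that GENCODE gives the genes, so that each stretch is upstream of the RefSeq start but within the GENCODE gene. The motif was looked up after the values were seen and reads the same on both strands. The stretches below, with up to 22 bases on each side and the motif in capitals, show where it lies. They are RefSeq promoter sequence of GRCm38.p6, 5′ to 3′ on the strand of the gene, which is the minus strand in each case.
Bzw2, chr12:36156889-36156938: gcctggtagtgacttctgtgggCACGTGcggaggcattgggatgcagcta
Rdh11, chr12:79191164-79191211: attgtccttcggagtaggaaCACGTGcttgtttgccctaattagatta
Nme1, chr11:93968273-93968312: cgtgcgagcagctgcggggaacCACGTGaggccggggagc
Nme1, chr11:93968027-93968076: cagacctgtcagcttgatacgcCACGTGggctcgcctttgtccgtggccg
Dph3, chr14:32085304-32085353: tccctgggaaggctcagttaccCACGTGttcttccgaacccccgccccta

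A promoter was at hand for 11 of the 15 genes, so the motif was found in 4 of 11. Nme1 has it in each promoter of the table, with the motif starting 18 and 29 bases before the start. It occurred for 29 of 170 genes (17.1%) at least 2-fold higher, for 54 of 484 (11.2%) at least 2-fold lower and for 490 of 4385 (11.2%) of all genes compared, beside 1854 of 27025 (6.86%) of all genes in the table of promoters. Of the 36 ribosome biogenesis genes with a promoter, 3 held it. A match is a stretch of letters and not a measured binding site. Myc itself was counted in 22 RNA-rich and 16 RNA-poor cells, with medians of 298 and 111, a ratio of 1.47 that lay below the fold.

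Ribosome biogenesis genes were mostly higher in RNA-rich cells. The 46 listed genes, which process ribosomal RNA or make up RNA polymerase I, include 40 that were compared. Of these, 7 were at least 2-fold higher (Polr1a, Polr1c, Nhp2, Rrp1b, Ddx21, Nop56 and Dkc1), 0 were as much lower, and 31 had a ratio above 1, where 3.92% of all genes were at least 2-fold higher and 39.9% had a ratio above 1. The median log2 ratio of the list was 0.41. Nop56, a core protein of the box C/D particles that guide methylation of ribosomal RNA, had 123 to 784 (median 328) in RNA-rich cells and 0 to 709.5 (median 147) in RNA-poor cells. It was counted in every RNA-rich cell and missing from 4 RNA-poor cells. Polr1c, a subunit shared by RNA polymerases I and III, was counted in 21 RNA-rich cells, with a median of 119, and in 10 RNA-poor cells. Ncl, the nucleolar protein nucleolin, had medians of 1642 and 1036. Npm1, the nucleophosmin of the same compartment, went the other way, with medians of 2491 in RNA-rich cells and 3580 in RNA-poor cells. The list kept a positive median when cells were ordered by ERCC-00074 alone (0.40), by ERCC-00096, ERCC-00130 and ERCC-00002 together (0.51) and in groups balanced over the cell numbers (0.51). Among the middle cells 20 members were above and 20 below a ratio of 1.

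Ribosomal proteins shifted little. Of the 79 cytosolic ribosomal protein genes 78 were compared, none passed 2-fold, and 67 had a ratio above 1, with a median log2 ratio of 0.16 that became -0.24 with means of log2 values relative to the median gene. In the order by ERCC-00096, ERCC-00130 and ERCC-00002 only 44 of 78 were above 1 (median 0.03), and 53 in the balanced groups (0.07). Among the middle cells 42 of 78 were above 1 (0.004). Rpl28, a protein of the large subunit, separated the groups best of them. It ran between 756 and 1483 (median 1140) in RNA-rich cells and between 405 and 1119 (median 784) in RNA-poor cells, and the RNA-rich cell was higher in 90.9% of pairs. Rps25, of the small subunit, had medians of 1494 and 1099 (85.3% of pairs), and Rplp0, part of the ribosomal stalk, had 8376 and 7465 (65.97%). These 3 genes had ratios of 1.12 to 1.49, well below the fold.

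Genes of energy supply and protein turnover were shifted slightly, beside the 39.9% of all genes with a ratio above 1. Among 76 compared genes of the nuclear part of oxidative phosphorylation, 54 had a ratio above 1, 1 was at least 2-fold higher (Ndufa12, of complex I) and 0 as much lower, with a median log2 ratio of 0.19. Atp5e, a small subunit of the ATP synthase, had 197 to 544 (median 326.5) in RNA-rich cells and 33.4 to 386 (median 177) in RNA-poor cells, and the RNA-rich cell was higher in 86.2% of pairs. Of 31 proteasome subunits, 25 had a ratio above 1 (median log2 ratio 0.20, 1 past the fold). Of 19 glycolytic genes 12 did (0.17), of 11 subunits of RNA polymerase II 9 did (0.18), and of 23 chaperones 14 did (0.12). Hspd1, the mitochondrial chaperonin, was the 1 chaperone past the fold, with medians of 542 in RNA-rich cells and 262 in RNA-poor cells. Without the 4 cells with the most G2/M genes, described further on, 43 of the 76 oxidative phosphorylation genes (median 0.04) and 11 of the 23 chaperones (-0.03) were above 1. So were 19 of the 31 proteasome subunits (0.11). Among the middle cells, where 50.04% of all genes were above 1, oxidative phosphorylation had 34 of 76, the proteasome 15 of 31 and glycolysis 8 of 19. RNA polymerase II had 6 of 11 above 1 in them and chaperones 13 of 23. In the order by ERCC-00096, ERCC-00130 and ERCC-00002 glycolysis had 8 of 19 above 1 and 3 at least 2-fold lower (-0.08). Translation factors and splicing factors were split, with 22 of 41 and 18 of 38 above 1, and the splicing factors had 31 of 38 above 1 in that order. Eif4a1, the helicase of the initiation complex, was among those above it, with medians of 1138 and 563.

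**Figure D3:**
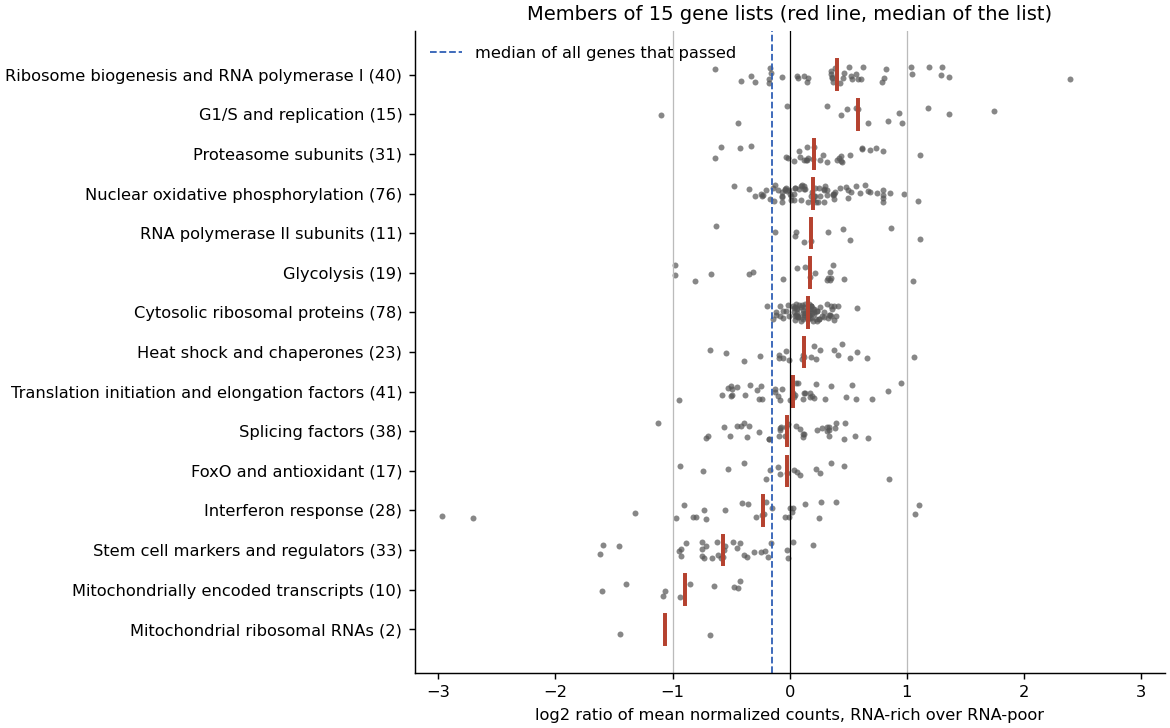
Log2 ratio of mean normalized counts, RNA-rich over RNA-poor, of the compared members (number in brackets) of 15 gene lists, with 1 point per gene, a red line at the median of each list and a dashed line at the median of all 5797 genes, -0.15. Grey lines mark 2-fold; ribosome biogenesis lies to the right of the dashed line, and stem cell markers and mitochondrial genes lie to the left.

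**Figure D4:**
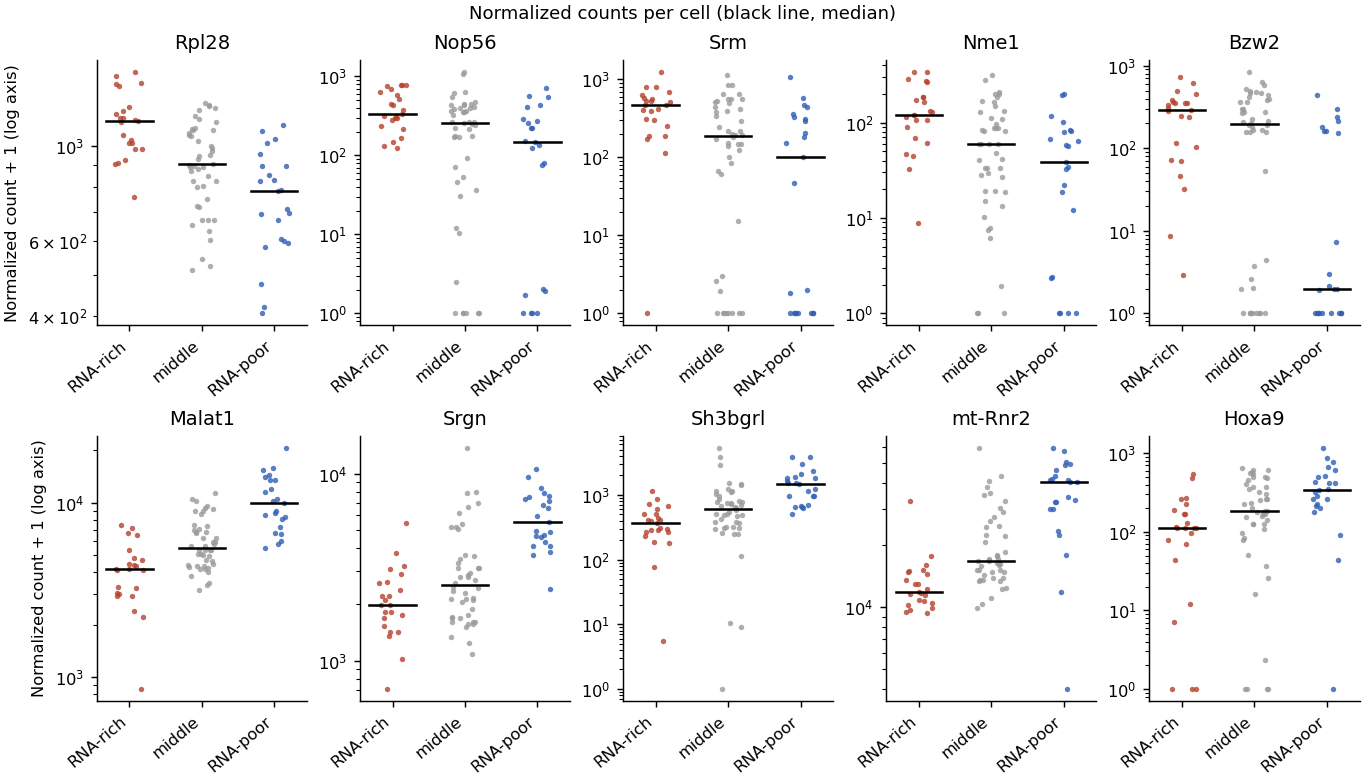
Normalized count + 1 (log axis) of 5 genes higher in RNA-rich cells (top) and 5 lower (bottom), with 1 point per cell and a black line at the median. The middle cells lie between the groups, as for Malat1, with medians of 4171 in RNA-rich, 5502 in middle and 9927 in RNA-poor cells.

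Among the genes past 2-fold, a few of those lower in RNA-rich cells, led by Malat1, Srgn and Sh3bgrl, separated the groups most sharply. Malat1, an abundant noncoding RNA held in the nucleus (chr19:5795690-5802672, minus strand), ran between 853.5 and 7464.5 (median 4171) in RNA-rich cells and between 5492 and 20635 (median 9927) in RNA-poor cells. The RNA-rich cell was higher in only 3.40% of pairs, and the log2 ratio was -1.33. Srgn, the core protein of serglycin proteoglycans in the granules of blood cells, ran between 705 and 5443 (median 1979) in RNA-rich cells and between 2405 and 10603 (median 5516) in RNA-poor cells, also with 3.40% of pairs. Sh3bgrl, a small protein of the SH3-binding glutamate-rich family, ran between 4.57 and 1147 (median 371) in RNA-rich cells and between 512 and 3834.5 (median 1472) in RNA-poor cells. The ranges overlapped for all 3, most widely for Srgn, whose highest RNA-rich cell came close to the RNA-poor median, and every cell of both groups had a count. Others of the 15 lowest were Pnrc1, a nuclear receptor coactivator, with medians of 326 in RNA-rich and 1075 in RNA-poor cells, and Tsc22d3, the glucocorticoid-induced leucine zipper, with 326 and 921.5. Ypel3, a gene of the Yippee family, had 91.35 and 426, and AW112010 had 229 and 644. Gm10800 had 34.1 and 92.8. Of the 15, 14 lay below a ratio of 1 among the middle cells as well, Ypel3 being the exception.

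Mitochondrial RNA made up much of the rest. All 10 compared messenger RNAs of the mitochondrial genome, of 13 listed, had lower means in RNA-rich cells, 4 of them by at least 2-fold (mt-Co2, mt-Co3, mt-Atp6 and mt-Nd2), with a median log2 ratio of -0.89. Over all genes 11.5% were at least 2-fold lower and 3484 of 5797 had a ratio below 1. Together the 13 listed messenger RNAs took 1.56 to 6.21% (median 1.93%) of the gene counts of an RNA-rich cell. In an RNA-poor cell they took 1.88 to 4.66% (median 3.24%). The large ribosomal RNA of the mitochondrion, mt-Rnr2, ran between 9348 and 32595 (median 11836) in RNA-rich cells and between 4011 and 59310 (median 40342) in RNA-poor cells. Its middle cells had a median of 16814. Single cells stood away from their groups. The 2 mitochondrial ribosomal RNAs took 0.176% of the gene counts of cell 18, an RNA-poor cell, where the next RNA-poor cell had 1.45%, and 4.19% of those of cell 94, an RNA-rich cell, where the next had 2.16%. mt-Co1, a subunit of cytochrome oxidase and the messenger RNA with the clearest separation, had medians of 12575 and 22339, with the RNA-rich cell higher in 6.43% of pairs. mt-Co2, of the same complex, had 112 and 327. Gm13340, a gene on chromosome 2, followed them with 73.8 and 171. Reads of nuclear copies of mitochondrial sequence can be hard to place, so its value is uncertain.

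The lower genes named above fell into separate sets when the cells were ordered in other ways, which were chosen after the spike-in make-up had been seen. Ordered by ERCC-00074 alone, with 18 RNA-rich and 18 RNA-poor cells kept in their groups, 10 of the 10 mitochondrial messenger RNAs were again lower in the low-share cells, with a median log2 ratio of -1.12. Ordered by ERCC-00096, ERCC-00130 and ERCC-00002 together, with 16 and 9 cells kept, only 2 of 10 were lower and the median was 0.26. mt-Nd2 had -2.04 in the first order and 0.56 in the second, mt-Rnr2 had -1.61 and -0.07, Srgn had -1.78 and -0.01, and Sh3bgrl had -2.40 and -0.07. By medians and pairs, some of these genes stayed lower in the low-share cells in the second order, at a smaller distance. Srgn had medians of 2458 in low-share and 3311 in high-share cells (39.9% of pairs), Sh3bgrl had 501.5 and 664 (36.7%), mt-Rnr2 had 12975 and 17707 (36.3%), and mt-Co1 had 12786 and 15659 (30.6%), where mt-Nd2 had 1091 and 956 (57.1%). Malat1 kept part of its difference, with -1.26 and -0.63, and so did Hoxa9 with -1.39 and -0.91. On the higher side Nme1, Srm and Rpl28 depended less on the spike-in, as Nme1 had 1.06 and 1.42, Srm 1.24 and 1.37, and Rpl28 0.45 and 0.44. Some genes with large ratios had smaller values under both orders. Bzw2, at 1.74 in the groups themselves, had 0.72 and 0.83, Fabp5 had 1.25 and 0.79 in place of 2.06, and Rdh11 had 1.22 and 1.03 in place of 1.995. Cdk6, at 2.08 in the groups, kept 2.28 and 1.65, and Nop56, at 1.045, had 0.49 and 1.12. In groups of 24 cells balanced over the blocks of cell numbers, all 10 mitochondrial messenger RNAs were lower, with a median of -0.58 and none past 2-fold, and Malat1 had -0.86. All these orders share cells and are not independent of each other.

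**Figure D5:**
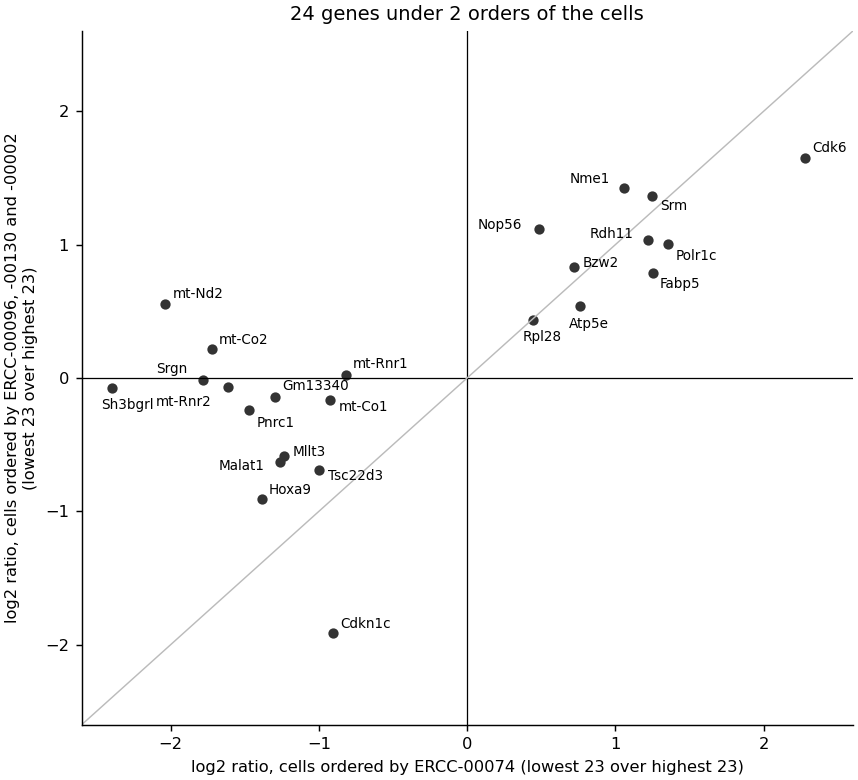
Log2 ratio of mean normalized counts, lowest 23 over highest 23 cells, of 24 genes when the cells are ordered by ERCC-00074 (horizontal) or by ERCC-00096, ERCC-00130 and ERCC-00002 together (vertical). Srgn, Sh3bgrl and the mitochondrial genes lie far from the grey line of equal values, near 0 or above on the vertical axis, as mt-Nd2 with -2.04 and 0.56.

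Stem cell genes were lower in RNA-rich cells as a list. Of 39 listed markers and regulators 33 were compared, 31 had a ratio below 1, 3 were at least 2-fold lower (Sult1a1, Mllt3 and Hoxa9) and 0 as much higher, with a median log2 ratio of -0.57. The share past 2-fold was no larger than the 11.5% of all genes, and the shift lay in the direction, as 3484 of all 5797 genes had a ratio below 1. Hoxa9, a homeobox factor of stem and progenitor cells, had 0 to 549 (median 111) in RNA-rich cells and 0 to 1177 (median 343) in RNA-poor cells. Mllt3, a subunit of the super elongation complex that is known to maintain stem cells, had 1.22 to 1557 (median 302) in RNA-rich cells and 0 to 5095 (median 974) in RNA-poor cells. For both, the RNA-poor cells filled the upper end of the range while the lower ends overlapped. Procr, the endothelial protein C receptor used to mark long-term stem cells, had medians of 283 in RNA-rich cells and 419 in RNA-poor cells, with a ratio of 0.608. Ly6a, which encodes the gate marker Sca-1, had 542.5 and 743 (0.651). Ifitm1, a membrane protein of the interferon-induced family, had 2588 and 4043 (0.684), and Lmo2, a bridging factor of the blood transcription complexes, had 1866 and 2286 (0.603). The list median stayed below that of all genes under both other spike-in orders, at -0.34 and -0.62, and at -0.57 in the balanced groups. It was -0.03 among the middle cells, with 17 of 33 members lower.

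Genes of the sorting gate gave no common direction. Kit had 95.5 to 1026 (median 332) in RNA-rich cells and 13.9 to 1165 (median 331) in RNA-poor cells, with every cell counted. Slamf1, which encodes CD150, was counted in 15 of 23 cells of each group, with medians of 68.8 and 181. Cd34, whose protein was gated as absent, was counted in 15 RNA-rich cells (65.2%, interval 42.7 to 83.6%) and 7 RNA-poor cells (30.4%, interval 13.2 to 52.9%), at means of 131 ± 175 and 53.96 ± 124 (SD, n = 23 cells each). The intervals treat the 23 cells of a group as independent draws, which cells chosen by rank from 1 sample are not. The Cd34 ratio of 2.40 turned below 1 among the middle cells. Flt3 was counted in 6 and 3 cells, and Cd48 in 0 of the 92.

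Genes of the G1 kinases, cyclins and their inhibitors were split. Of 11 compared, 6 had a ratio above 1 (median log2 ratio 0.20), 2 were at least 2-fold higher and 2 lower. Cdkn1c and Cdk6, the best separated of them, differed in opposite directions. Cdkn1c, the p57 inhibitor that is known to hold stem cells in quiescence, was counted in 10 RNA-rich cells, with 0 to 462 (median 0), and in 18 RNA-poor cells, with 0 to 837 (median 179). Cdk6, a kinase of the exit from quiescence, was counted in 19 RNA-rich cells, with 0 to 811 (median 80.9), and in 11 RNA-poor cells, with 0 to 335 (median 0). The ratios were 0.320 and 4.21, and both genes had values at 0 in each group. Of 15 compared genes of the G1/S transition and DNA replication 12 had a ratio above 1, with a median log2 ratio of 0.59. Of the 15, 3 were at least 2-fold higher (Mcm2, Mcm4 and Rrm1) and 1 lower (Casp8ap2). Among the middle cells 14 of the 15 were above 1 (median 0.47), beside 50.04% of all genes. The G1/S median was 0.29 in the order by ERCC-00074 and 0.98 in the order by ERCC-00096, ERCC-00130 and ERCC-00002. In the balanced groups it was 0.70, with 13 of 15 above 1. Of 11 compared genes of G2/M 7 had a ratio above 1, with a median of 0.13, 2 were at least 2-fold higher (Hmgb2 and Cks1b) and 1 lower (Smc4). Beside these counts, 3.92% of all genes were at least 2-fold higher, 11.5% lower, and 39.9% had a ratio above 1.

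Cells 49, 53, 66 and 78, which had the most of the 54 listed G2/M genes counted after thinning (42, 35, 53 and 48), were all RNA-rich. The next cell, a middle one, had 25, and RNA-poor cells had at most 18 without thinning. Their shares were the 10th, 2nd, 3rd and 4th lowest. Mki67, the classical marker of cycling cells, had 452, 37.8, 569 and 98.2 in them, 0 to 14.6 in the other 19 RNA-rich cells and no count in any RNA-poor cell. The same 4 cells held the highest Hmgb2 (647 to 2665). Pf4, a platelet chemokine, had 2233, 138, 4768 and 6885 in them, against at most 244 in the other RNA-rich cells and 339 in RNA-poor cells, so that cell 53 was not high for it. Gata1, the erythroid and megakaryocytic factor, had 115 to 274.5 in all 4, and was counted in 1 other RNA-rich cell and 2 RNA-poor cells. Procr was at 5.09 or less in each, where the other RNA-rich cells had a median of 327.

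Without those 4 cells, 197 genes were at least 2-fold higher and 704 lower. The G1/S median was then 0.34 and that of G2/M -0.14, with 1 and 0 genes past 2-fold on the higher side. Ribosome biogenesis had 0.24 with 3 genes past 2-fold, and stem cell genes -0.36. Cdk6 kept a log2 ratio of 1.26 in place of 2.08. Itga2b, which encodes CD41 of the platelet integrin, was counted in 12 RNA-rich cells, with 0 to 1141, and in 3 RNA-poor cells at 14 counts in all, with a highest normalized count of 8.37. Its log2 ratio of 6.54 was 4.88 without the 4 cells and -0.025 among the middle cells, where it was counted in 19 of 46 with up to 600. The ratio of 92.95 thus rested on RNA-poor cells that nearly all lacked the gene.

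Other lists were mixed in direction. Over all genes 3.92% were at least 2-fold higher, 11.5% were at least 2-fold lower and 39.9% had a ratio above 1. Of 28 compared interferon-response genes 2 were at least 2-fold higher and 3 lower (Gbp3, Iigp1 and Rsad2), with a median log2 ratio of -0.23. Iigp1, an interferon-induced GTPase, had 0 to 389 (median 1.01) in RNA-rich cells and 0 to 3587 (median 448) in RNA-poor cells. The list turned to 0.71 among the middle cells, with 25 of 28 members above a ratio of 1, and to 0.11 in the order by ERCC-00074. Immediate early genes had 6 of 12 above 1, but 1 of 12 in the balanced groups (median -0.63) and 2 of 12 in the order by ERCC-00096, ERCC-00130 and ERCC-00002 (-0.68), with 2 at least 2-fold lower in each. In the other lists, FoxO and antioxidant genes had 8 of 17 above 1, and genes of Myc and mTOR growth control 5 of 13 with 3 at least 2-fold lower. B2m, the light chain of MHC class I, had medians of 10254 and 12840 (19.7% of pairs).

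Markers of macrophages, lymphoid cells and mast cells were few in both groups. Over the 8 macrophage, 8 B cell, 10 T and NK cell, 9 lymphoid progenitor and 8 mast cell markers, the summed normalized count had group medians of at most 105 in RNA-rich cells and 101 in RNA-poor cells, and the B cell median was that of Cd79b, counted in 16 RNA-rich and 18 RNA-poor cells. The sums reached 126, 385, 621, 325 and 76.6 in single RNA-rich cells and 404.5, 411, 610, 432 and 0 in single RNA-poor cells. The hemoglobin genes Hba-a1 and Hba-a2, Mpo and Elane of granulocytes, and Cd3e and C1qc had no count in any of the 92 cells. Of the 18 granulocyte and monocyte markers, however, 13 had counts. Lyz2 was counted in all 23 cells of each group, Prtn3 in 22 of each, and Csf3r in 9 RNA-rich and 13 RNA-poor cells. The 18 granulocyte and monocyte markers summed to 396 to 3070 (median 1388) in RNA-rich cells and 173 to 3067.5 (median 1557) in RNA-poor cells, and the 8 endothelial markers to medians of 759 and 879. The 7 MHC class II genes had median sums of 686 and 698. Of 15 erythroid markers only Car2, a carbonic anhydrase, was compared, with medians of 2413 in RNA-rich cells and 3960 in RNA-poor cells. Vwf, of platelets and endothelium, was counted in 15 and 12 cells with means of 213 ± 267 and 214 ± 370. The part of other cell types in the results was not tested.

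Read per spike-in instead of per transcriptome, nearly the whole transcriptome was higher in RNA-rich cells, which the rule itself brings about. With size factors from the 8 ERCC spike-ins counted in all 92 cells, the median gene had a ratio of 2.65, 4205 genes were at least 2-fold higher (72.5%) and 31 as much lower (0.535%). This scale moved the median log2 ratio by 1.56. Against that background the ribosome biogenesis list had a median ratio of 4.04, ribosomal proteins 3.24, stem cell genes 1.95 and mitochondrial messenger RNAs 1.55. Malat1 had 1.17, mt-Rnr2 1.06, mt-Nd2 1.01, Srgn 1.10, Hoxa9 1.03 and Mllt3 0.870. These ratios follow the 8 spike-ins behind the size factors. Per count of all ERCC spike-ins, Malat1 had medians of 0.434 counts in RNA-rich cells and 0.306 counts in RNA-poor cells, with RNA-rich cells higher in 72.97% of pairs. How far these values depend on ERCC-00074 was not tested.

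The transcripts that differed were also longer on the lower side. The longest annotated transcript in GENCODE M21 had a median length of 3270 bases over the genes at least 2-fold higher, 3755 bases over those at least 2-fold lower and 3128 bases over all genes compared, with a length for 94.8% of them. Among the 1372 genes with the longest transcripts 49 were higher and 215 lower, and among the 1376 with the shortest 46 were higher and 99 lower. The part of transcript length was not tested.

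As a check in cells that set no group, the 227 higher genes were above a ratio of 1 among the middle cells in 125 cases (55.1%), where 50.04% of all genes were. The 667 lower genes were below it in 401 cases (60.1%), where 49.96% of all genes were.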

How the data were processed

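The authors deposited a table of read counts, with genes and spike-ins as its features, for 96 single cells prepared by a Smart-seq2 type protocol with Nextera XT libraries. The submitters' processing notes list HTSeq 0.6.1, STAR 2.3.0, SAMtools 0.1.18 and mm10, with no roles given. The counts carry no molecular identifiers and were used as deposited. Size factors were medians of ratios over the 602 genes, or the 8 spike-ins, counted in all 92 kept cells. Genes were kept with a mean of at least 50 and 10 counted cells among the 46 middle cells, and ratios of group means were taken with a pseudocount of 1. No test was made, since the cells are 1 sample. Shares of pairs count ties equally for both groups. Genes were named as the 15 at each end by share of pairs among those past 2-fold, as the best separated and most abundant members of each list, and as genes of the gate or the study. Pf4, Mki67, Hmgb2, Polr1a and Sult1a1, and members of lists named only as past 2-fold, were added after their values were seen. The groups, members and lists were chosen with earlier results of these data known. Positions are from GENCODE M21 and promoters from RefSeq GRCm38.p6. The scripts, in Python 3.11.15 with pandas 2.3.3, scipy 1.17.1, numpy 2.4.6 and, for figures, matplotlib 3.10.9, were tested on simulated data. In all, 21 alternatives were tried, 7 of them chosen after seeing the data.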

Additional observations from a re-analysis of the deposited data

How the results depend on the processing

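Without replicates, only counting error and the spread over cells limit these values. Counts of genes past 2-fold moved most. The 227 higher and 667 lower genes became 360 and 433 with total gene counts as size factors, 512 and 1030 with 12 cells at each end, 60 and 212 with 46 cells, 2248 and 3028 with no filter beyond 1 count, 17 and 90 at a mean of at least 200, and 1680 and 423 with means of log2 values. Higher genes alone moved to 343 with ERCC size factors relative to the median gene and to 149 with a pseudocount of 10, and lower genes alone to 254 among the middle (inner) cells. Chosen after seeing the data, comparisons within cells 1 to 24 gave 1602 higher and 1603 lower genes, from 7 RNA-rich and 3 RNA-poor cells, those within cells 49 to 72 gave 770 and 1446, from 5 and 9, and log2 means relative to the median gene gave 1055 higher genes. The difference of 848 in genes detected was 78 among the inner cells, and the fold in gene counts per ERCC count was 3.80 with 12 cells, 1.89 with 46, 1.34 among the inner cells and 2.05 in the order by ERCC-00096, ERCC-00130 and ERCC-00002. The mitochondrial list had a median log2 ratio of -0.39 among the inner cells and 0.26 in the order by those 3 spike-ins, where mt-Co2 (0.22), mt-Atp6 (0.21) and mt-Nd2 (0.56) changed sign.

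The alternatives followed 41 of the genes reported past 2-fold, not all of them. Of these 41, 31 kept their sign among the inner cells. Bzw2 (-0.84), Fabp5 (-0.47), Rqcd1 (-0.32), Tmem147 (-0.34), Nop56 (-0.48), Cd34 (-0.56), Itga2b (-0.025), Ypel3 (0.13), Mllt3 (0.14) and Iigp1 (0.45) did not. Within cells 1 to 24, 35 kept it, and Fabp5 (-0.48), Nme1 (-0.030), Polr2l (-0.20), Srm (-0.32), Erh (-0.28) and Rrm1 (-1.13) did not. Within cells 49 to 72 only Larp4 (-0.38) did not. The cause was not tested. All 41 kept their sign without cell 18, in the balanced groups, in the order by ERCC-00074 and without the 4 cells with the most G2/M genes, and 38 did in the order by ERCC-00096, ERCC-00130 and ERCC-00002, but fewer stayed past 2-fold. Those were 39 without cell 18, 20 in the balanced groups, 28 by ERCC-00074, 35 without the 4 cells and 16 by the 3 spike-ins. Outside the 41, Polr1a (-0.30), Sult1a1 (0.42) and Cks1b (-0.052) changed sign among the inner cells. Hmgb2 (-0.071) changed sign without the 4 cells. No paired analysis was possible because the groups hold single cells whose numbers pair nothing.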
